A study of Mus musculus with 114 samples.

Results

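The cytochrome P450 genes were taken as all genes whose symbol begins with Cyp and a digit, which gave 100 of the 29132 genes measured in perigonadal adipocytes. Of these, 15 had a mean above 3 CPM (reads of a gene scaled to a common library total) over all mice and are called expressed here, 47 had reads at or below that limit and 38 had no read in any mouse. RNA-seq libraries came from the adipocyte fraction, the cells that float after the fat pad is digested, of 38 male C57BL/6J mice. From 6 weeks of age the mice ate chow (CD) or a high-fat diet (HFD), and they were studied after 8, 20 or 34 weeks of feeding, at 14, 26 or 40 weeks of age. The groups held 6 CD and 6 HFD mice at 8 weeks, 6 and 6 at 20 weeks, and 8 and 6 at 34 weeks. A floated fraction is enriched for adipocytes and is not a pure cell type, and time on diet cannot be told apart from age.

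Cytochrome P450 enzymes hold a haem group and insert an oxygen atom into fatty acids, sterols, steroid hormones, retinoids, vitamin D, drugs and pollutants. Those of the endoplasmic reticulum take electrons from the reductase encoded by Por, and those of mitochondria take them from the ferredoxin encoded by Fdx1. Their families are numbered by sequence likeness, and many of the genes sit in tandem arrays that differ between mouse and human.

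To show what lies directly before the genes that moved most, the 150 bases upstream of the annotated start of 5 of them are given from RefSeq on the GRCm38.p6 build, 5′ to 3′ on the strand of the gene. Capitals mark letters that match GCGTG (the core bound by the aryl hydrocarbon receptor with Arnt), AGGTCA (a nuclear receptor half-site), TTGCNNAA (a C/EBP site), TCACNCCAC (a sterol response element), CCAAT or TATAAA on either strand.
Cyp2e1, chr7:140763669-140763818 (plus strand): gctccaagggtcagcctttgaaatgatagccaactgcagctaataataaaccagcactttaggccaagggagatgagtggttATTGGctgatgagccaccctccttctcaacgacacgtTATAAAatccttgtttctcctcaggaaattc
Cyp2f2, chr7:27119805-27119954 (plus strand): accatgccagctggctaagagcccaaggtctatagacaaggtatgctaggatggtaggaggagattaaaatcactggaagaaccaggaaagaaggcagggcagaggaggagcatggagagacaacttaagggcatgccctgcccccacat
Cyp1b1, chr17:79715062-79715211 (minus strand): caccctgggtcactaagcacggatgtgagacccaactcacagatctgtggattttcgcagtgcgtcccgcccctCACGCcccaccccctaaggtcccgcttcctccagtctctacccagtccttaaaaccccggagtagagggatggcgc
Cyp4v3, chr8:45333164-45333313 (minus strand): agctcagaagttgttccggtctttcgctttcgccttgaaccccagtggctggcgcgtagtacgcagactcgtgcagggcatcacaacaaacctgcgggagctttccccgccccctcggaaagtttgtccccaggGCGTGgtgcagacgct
Cyp4b1, chr4:115647722-115647871 (minus strand): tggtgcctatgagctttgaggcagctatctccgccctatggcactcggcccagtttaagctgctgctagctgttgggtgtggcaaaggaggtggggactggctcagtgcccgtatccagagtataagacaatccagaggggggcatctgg
A RefSeq promoter was matched for 13 of the 15 expressed genes, and Cyp2d22 and Cyp4f17 had no entry. Over the 250 bases upstream, 6 of the 13 held GCGTG, which 28.2% of all 32851 promoters of that length also held. CCAAT was found in 7 of 13 against 33.8% of all promoters, AGGTCA in 1 (Cyp2f2, with the match upstream of the bases shown) against 14%, TTGCNNAA in 2 against 9.56%, TCACNCCAC in none against 1.05% and TATAAA in 1 against 12.4%. The TATAAA match belonged to Cyp2e1, where it began 31 bases before the start, with CCAAT on the other strand at 68 bases before it. The GCGTG matches of Cyp1b1 and Cyp4v3 began 76 and 16 bases before the start, respectively. No match overlapped another. RefSeq starts can differ from those of other annotations. In GENCODE, another annotation, Cyp2e1 (from chr7:140763739), Cyp2f2 (from chr7:27119909) and Cyp4v3 (to chr8:45333216) reach into the bases shown. Cyp4b1 (to chr4:115647723) does so at the edge. For these genes the bases are upstream of the RefSeq start only. All of these are matches of letters that say nothing of binding in these cells.

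The reads per mouse ranged from 9275711 to 15480388, so that 1 read was worth 0.0646 to 0.108 CPM, and the 8-week diets did not overlap in depth (10562845 to 12611013 reads in CD and 13201234 to 15480388 in HFD). All 14 adipocyte markers had reads in the fraction, led by Fabp4 with a mean of 15103 CPM, and their summed level had a median of 63217 CPM in 8-week CD mice and 28110 CPM in 34-week HFD mice. With HFD 1 of these 14 was higher at each time, and 2, 10 and 11 were lower at 8, 20 and 34 weeks. All marker counts are to be read against all genes tested, of which 30.1%, 38.9% and 28.0% were higher at those times. The shares that were lower were 15.0%, 18.7% and 15.7%. Markers of other cells moved with diet and time, and their part in the results was not tested except for the fit with a macrophage term given below. The summed level of 14 macrophage markers ranged from 475 to 1941 CPM in CD and 1251 to 3523 CPM in HFD mice at 8 weeks, from 1095 to 3793 and 4958 to 10187 CPM at 20 weeks, and from 1280 to 13620 and 5681 to 17034 CPM at 34 weeks. None of these 14 was at 0, and 9, 10 and 12 of them passed the test as higher with HFD at 8, 20 and 34 weeks, while 1 was lower at 20 weeks. Of the progenitor and fibroblast markers tested, 6, 9 and 4 of 9 were higher at the respective times, and of the endothelial markers 8, 6 and 7 of 8. Mesothelial markers were higher for 2, 1 and 0 of 4 tested, neutrophil markers for 1, 0 and 0 of 2 with Ly6g at 0, and no T and B cell or epididymis marker reached the limit for a test. Of 8 hepatocyte markers only Hp, which adipocytes also express, and Alb were above the limit, and both were lower with HFD at 20 and 34 weeks. Apoa1 stayed under 1 CPM in every mouse and Ttr had reads in 1 group only, at no more than 0.0947 CPM. Star was the only testis and Leydig cell marker above the limit and was lower with HFD at all 3 times. In such bulk libraries fewer cells of a type and less RNA per cell cannot be told apart.

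A single gene, Cyp2e1, held most of the Cyp reads by the median in 5 of the 6 groups, and its share was lower on HFD and after 34 weeks. Cyp2e1 oxidizes ethanol, acetone and other small molecules, and is best known as an abundant liver enzyme. It took a median of 94.4% of all Cyp reads in 8-week CD mice and 95.6% in 20-week CD mice. The share was 73.3% in 34-week CD mice. On HFD it was 65.9% after 8 weeks, 53.6% after 20 weeks and 36.8% after 34 weeks. Reads on all Cyp genes made up 0.922% ± 0.167 of the library in 8-week CD mice (SD, n = 6) and 0.0813% ± 0.0198 in 34-week HFD mice (SD, n = 6). The summed CPM of the other 99 Cyp genes had means of 530, 514, 511, 503, 472 and 484 in CD and HFD mice at 8, 20 and 34 weeks in turn, and every mouse lay between 356 and 624 CPM. The sum without Cyp2e1 thus overlapped between all 6 groups, although its members moved in opposite directions.

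**Figure D1:**
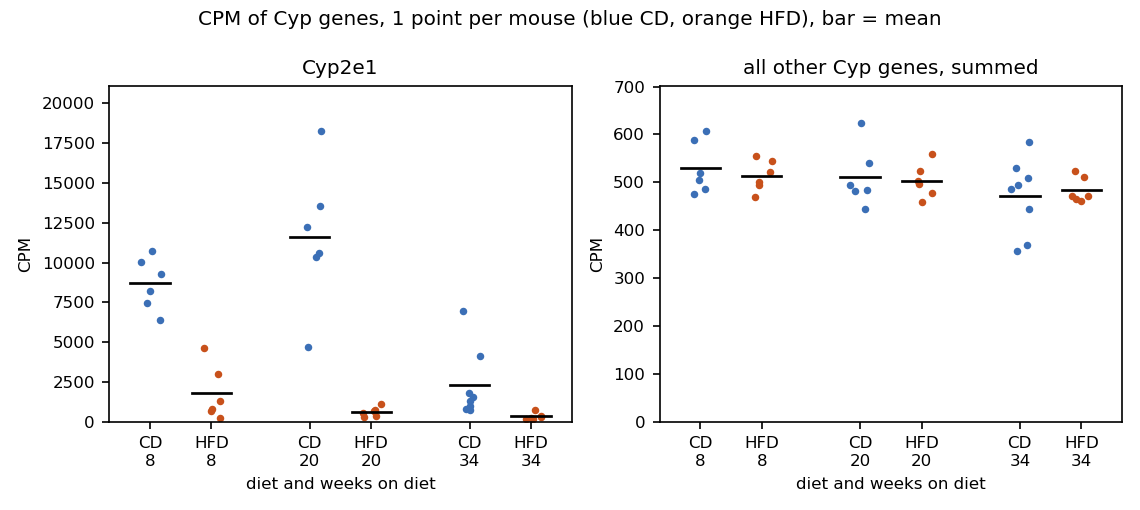
CPM of Cyp2e1 (left) and the summed CPM of the other 99 Cyp genes (right) on linear axes that start at 0, by diet and weeks on diet, with 1 point per mouse (blue CD, orange HFD) and a bar at the group mean. Cyp2e1 falls from a mean of 8688 to 1786 CPM at 8 weeks, whereas the sum of the others stays between 356 and 624 CPM in every mouse.

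Per kilobase of exon, Cyp2e1 had the highest level of the 15 genes in all 6 groups, from 5388 ± 2063 CPM per kb in 20-week CD mice (SD, n = 6) down to 153 ± 93.4 in 34-week HFD mice (SD, n = 6). Next in CD mice at 8 and 20 weeks came Cyp2f2, with 48.2 ± 29.2 and 52.5 ± 33.4 CPM per kb (SD, n = 6 each), and then Cyp4v3, with 24.7 ± 1.65 and 21.8 ± 4.62. These neighbours in the order did not differ beyond the spread between mice, since the lowest Cyp2f2 values were 22.7 and 13.9. On HFD Cyp4v3 was next after Cyp2e1 at all times, with 57.0 ± 8.60, 51.9 ± 5.44 and 43.9 ± 3.75 CPM per kb (SD, n = 6 each). Cyp27a1 followed at 8, 20 and 34 weeks of HFD with 24.8, 19.4 and 20.9 CPM per kb, at 20 and 34 weeks within the spread of Cyp4b1 with 18.7 ± 5.71 and 18.3 ± 5.39 (SD, n = 6 each).

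The comparison of diets at each time asks which Cyp genes differ between HFD and CD mice of the same age. It was made with limma on log2(CPM + 1) over the 10543 genes above the limit, so folds are on that scale and understate changes of low genes, and genes were called at an adjusted p (Benjamini-Hochberg) below 0.05. At 8 weeks 10 of the 15 expressed Cyp genes were called, against 45.2% of all genes tested. Of these, 4 were higher with HFD (Cyp4b1, Cyp4v3, Cyp4f18 and Cyp20a1, background 30.1%) and 6 were lower (Cyp2f2, Cyp2e1, Cyp1b1, Cyp4f17, Cyp2d22 and Cyp4f13, background 15.0%). The mice of the diets did not overlap for 4 genes (Cyp2e1, Cyp2f2, Cyp1b1 and Cyp4v3), as for 22.8% of all genes. At 20 weeks 10 were called (57.6% of all genes), the same 4 as higher (38.9%) and 6 as lower (18.7%), with Cyp2j6 in place of Cyp1b1. No overlap was seen for 7 genes at that time (Cyp2e1, Cyp2f2, Cyp2j6, Cyp4b1, Cyp4f17, Cyp4f18 and Cyp4v3, background 37.8%). At 34 weeks 7 were called (43.7%), 3 as higher (Cyp4b1, Cyp1b1 and Cyp20a1, 28.0%) and 4 as lower (Cyp2e1, Cyp4f17, Cyp2j9 and Cyp2j6, 15.7%), with no overlap for Cyp2e1 and Cyp20a1 alone (2.50%). With the macrophage marker mean as a term in the fit 10, 6 and 2 genes were called at the 3 times, against 36.7%, 30.6% and 9.17% of all genes. Of these, 8, 5 and 2 were called without the term too. At 8 weeks Cyp20a1 and Cyp4f18 were lost and Cyp2j6 and Cyp2j9 gained. At 20 weeks Cyp20a1, Cyp2d22, Cyp2j6, Cyp4f13 and Cyp4f18 were lost and Cyp1b1 gained, and at 34 weeks Cyp1b1, Cyp2j6, Cyp2j9, Cyp4b1 and Cyp4f17 were lost. The macrophage marker sums of the diets did not overlap at 20 weeks (1095 to 3793 CPM in CD and 4958 to 10187 CPM in HFD mice). Diet and macrophage content therefore cannot be told apart by the term at that time. The median log2 difference of the 15 was 0.114, -0.052 and -0.202 at 8, 20 and 34 weeks, beside 0.115, 0.143 and 0.077 over all genes. With TMM scaling those medians of all genes were 0.013, -0.064 and -0.009, so for small rises such as that of Cyp20a1 the value with TMM scaling is given as well. Cyp2f2 passed the limit through its CD mice. Cyp4f18 had means of 2.34 and 2.99 CPM in CD mice at 8 and 20 weeks, and passed through its HFD mice and the 34-week CD mice. The counts therefore describe the 15 genes and no more.

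**Figure D2:**
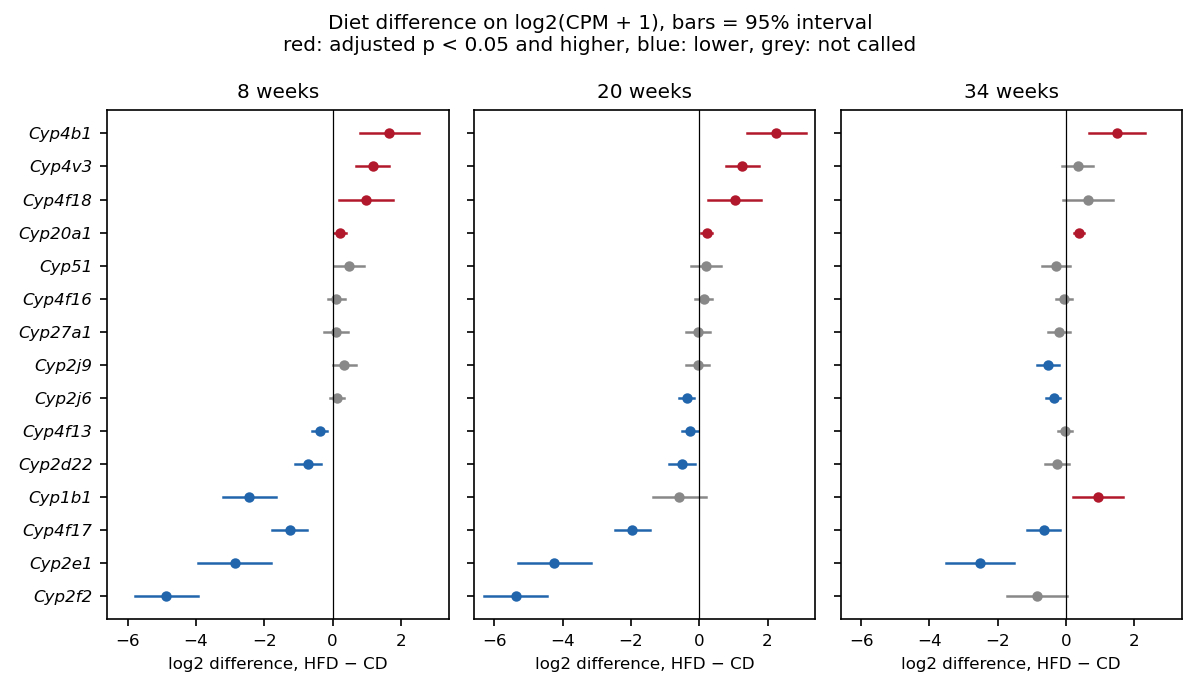
Difference of HFD from CD mice in log2(CPM + 1) for the 15 expressed Cyp genes at 8, 20 and 34 weeks, with points for limma's estimate, bars for its 95% interval, and red, blue or grey for higher, lower or not called at an adjusted p below 0.05. Cyp2f2 lies at -4.87, -5.38 and -0.85 at the 3 times, and Cyp4b1 at 1.66, 2.26 and 1.5.

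Among the genes of the drug and pollutant oxidizing families, Cyp2e1 was lower with HFD in all HFD mice at every time. At 8 weeks its level ran from 6416 CPM through a median of 8737 to 10749 in CD mice, and from 243 through 1070 to 4618 in HFD mice. The 20-week values were 4694, 11443 and 18271 CPM in CD mice and 299, 617 and 1082 in HFD mice, and the 34-week values 761, 1422 and 6984 against 169, 286 and 714. The diets did not overlap at any time, and 7 of the 8 CD mice at 34 weeks lay within the range of the 8-week HFD mice. The log2 difference was -2.87 ± 0.53 at 8 weeks (SE, adjusted p = 8.02e-05), -4.24 ± 0.53 at 20 weeks (adjusted p = 1.12e-07) and -2.52 ± 0.49 at 34 weeks (adjusted p = 0.000217). The last of these equals a 5.75-fold lower level. It was -1.57 with the macrophage marker mean as a term in the fit and was still called.

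Cyp2f2, which oxidizes naphthalene and is best known from airway cells, showed the widest differences at 8 and 20 weeks and a small one at 34 weeks. In CD mice its level ran from 45.9 CPM through 73.9 to 204 at 8 weeks and from 28.1 through 91.6 to 216 at 20 weeks. In HFD mice the values were 0.388, 2.13 and 4.55 CPM at 8 weeks, which are 6 to 68 reads, and 0.484, 1.06 and 2.34 CPM at 20 weeks, which are 7 to 33 reads. Every HFD mouse was below every CD mouse at both times. This gave a log2 difference of -4.87 ± 0.46 (SE, adjusted p = 9.41e-09, 29.3-fold lower) at 8 weeks and -5.38 ± 0.46 (adjusted p = 4.11e-10, 41.6-fold lower) at 20 weeks. At 34 weeks CD mice had 3.21, 7.93 and 29.2 CPM and HFD mice 0.822, 4.48 and 8.18, the diets overlapped, and the difference of -0.85 did not pass (95% interval -1.72 to 0.02, adjusted p = 0.105), although DESeq2 called it. The antisense gene Gm15883 overlaps 13.5% of the exon bases of Cyp2f2, and as the counting is not stated to use strand their reads cannot be told apart there.

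Cyp1b1 oxidizes estrogens, retinoids and polycyclic hydrocarbons and is a textbook target of the aryl hydrocarbon receptor. Its 8-week levels were 38.6, 73.1 and 94.6 CPM in CD mice and 7.24, 9.64 and 23.6 in HFD mice, with no overlap. At 20 weeks the values were 29.9, 47.0 and 57.7 CPM in CD mice and 25.5, 29.5 and 33.3 in HFD mice, with 4 of 6 HFD mice below all CD mice. At 34 weeks they were 3.16, 4.98 and 52.9 CPM in CD mice and 9.43, 11.9 and 23.8 in HFD mice. Of the 8 CD mice at 34 weeks, 7 lay below all HFD mice and mouse 5 lay above them. For Cyp1b1 the log2 difference was -2.44 ± 0.38 at 8 weeks (adjusted p = 1.29e-05), -0.58 ± 0.38 at 20 weeks (adjusted p = 0.195) and 0.94 ± 0.36 at 34 weeks (adjusted p = 0.0331). The 34-week call was lost in 7 of 10 other settings, among them edgeR on the recovered reads (0.36, adjusted p = 0.524), with adjusted p from 0.028 to 0.527 over all 10, and when any 1 of 6 mice was left out (CD mice 1, 3, 7 and 8, HFD mice 2 and 3). The 20-week difference was called with the macrophage term (-1.25, adjusted p = 0.0306), in a fit of the 20-week groups alone (adjusted p = 0.00191) and without CD mouse 5 at 34 weeks (adjusted p = 0.0455). Without CD mouse 5 at 34 weeks the difference was 1.34. That mouse also had the highest macrophage marker sum (13620 CPM, other CD mice 1280 to 8459) and the lowest adipocyte marker sum (32630 CPM, others 42974 to 70051) of its group, and the part of this in its Cyp1b1 level was not tested.

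Cyp2d22, a member of the drug-oxidizing Cyp2d array, had group means of 30.2 and 18.8 CPM in CD and HFD mice at 8 weeks, 27.8 and 19.8 at 20 weeks, and 20.6 and 16.9 at 34 weeks. It fell with HFD by 0.72 on the log2 scale at 8 weeks (SE 0.19, adjusted p = 0.0025) and by 0.51 at 20 weeks (adjusted p = 0.0197), with 5 and 4 of 6 HFD mice below all CD mice. With the macrophage term the 20-week difference was -0.41 and not called (adjusted p = 0.179). At 34 weeks the difference was -0.27 (adjusted p = 0.211).

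**Figure D3:**
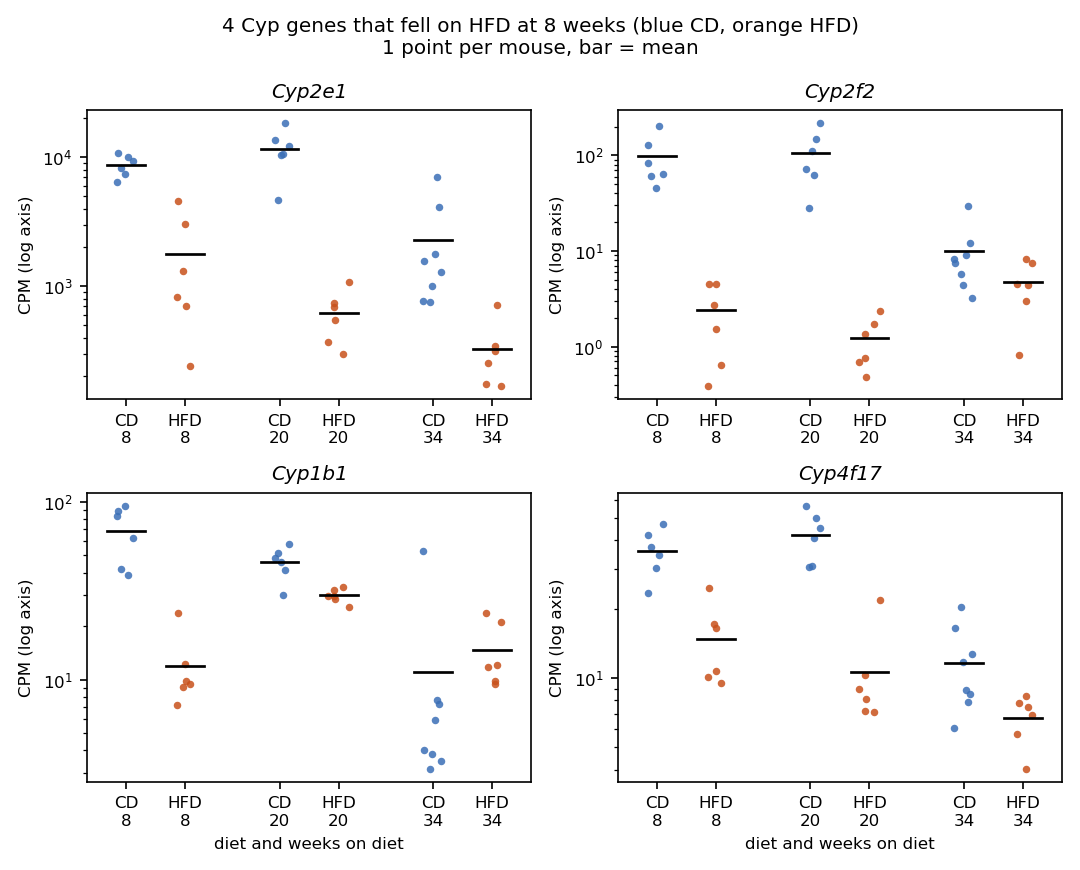
CPM on a log axis of Cyp2e1, Cyp2f2, Cyp1b1 and Cyp4f17 by diet and weeks on diet, with 1 point per mouse (blue CD, orange HFD) and a bar at the group mean. By the median, CD mice at 34 weeks stand below those at 8 and 20 weeks for all 4 genes, and CD mouse 5 stands apart from its group with 52.9 CPM of Cyp1b1.

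The expressed genes that oxidize fatty acids and eicosanoids came from the Cyp4 and Cyp2j groups and moved in both directions. Cyp4v3, the mouse counterpart of a fatty acid hydroxylase mutated in a human corneal and retinal lipid disease, had the next highest mean of the family at 151 CPM. Its levels at 8 weeks were 88.1, 93.0 and 105 CPM in CD mice and 163, 222 and 250 in HFD mice, and at 20 weeks 65.9, 79.4 and 110 CPM against 177, 194 and 234. No HFD mouse overlapped the CD mice at either time, and the log2 difference was 1.18 ± 0.24 (adjusted p = 0.000204) and 1.26 ± 0.24 (adjusted p = 3.25e-05), respectively. At 34 weeks CD mice spread from 54.6 through 147 to 250 CPM around HFD mice with 149, 164 and 188, and the difference of 0.34 did not pass (95% interval -0.11 to 0.79, adjusted p = 0.212). The predicted gene Gm45753 shares 8.22% of the exon bases of Cyp4v3 on the same strand, and reads there would not have been unambiguous for either gene.

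Cyp4b1, which hydroxylates fatty acids and activates some pneumotoxins, was higher with HFD at all 3 times. Its level at 8 weeks was 1.8, 3.91 and 15 CPM in CD mice and 5.15, 21.8 and 28.9 in HFD mice. At 20 weeks the values were 4.49, 7.90 and 11.2 against 19.9, 43.9 and 54.2 CPM without overlap, and at 34 weeks 5.42, 13.9 and 54.4 against 26.5, 42.1 and 55.9 CPM. HFD mice stood above the CD mean in 5, 6 and 6 of 6 cases. The log2 difference was 1.66 ± 0.43 (adjusted p = 0.00234), 2.26 ± 0.43 (adjusted p = 3.86e-05) and 1.5 ± 0.40 (adjusted p = 0.00326), and with the macrophage term the 34-week value was 0.89 and no longer called (adjusted p = 0.18). Pseudogenes of Cyp4b1 share 5.59% of the 75-base words of its transcripts.

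Cyp4f18 hydroxylates leukotriene B and is known from myeloid cells. It had 0.652, 1.82 and 4.82 CPM in CD mice and 3.54, 4.93 and 7.30 in HFD mice at 8 weeks, and 0.957, 2.84 and 4.41 CPM against 4.79, 6.71 and 10.4 without overlap at 20 weeks. At 34 weeks the values were 1.69, 7.06 and 23.6 CPM in CD mice and 6.85, 12.6 and 19.6 in HFD mice, and the diets overlapped widely. The differences on the log2 scale were 0.98 ± 0.39 (adjusted p = 0.0371), 1.04 ± 0.39 (adjusted p = 0.0213) and 0.64 ± 0.36 (adjusted p = 0.146). With the macrophage marker mean in the fit the first was 0.034 (adjusted p = 0.923) and the second turned to -0.42 (adjusted p = 0.211). The 8-week rise was also not called by edgeR, by DESeq2, without a filter or with a replicate block, or when any 1 of 6 mice was left out (CD mice 1, 2 and 3, HFD mice 3, 4 and 6), with adjusted p from 0.0174 to 0.923 over 10 settings. The 20-week rise was lost without CD mouse 3 or HFD mouse 5. The gene overlaps Zfp961 on the opposite strand over 9.76% of its exon bases.

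**Figure D4:**
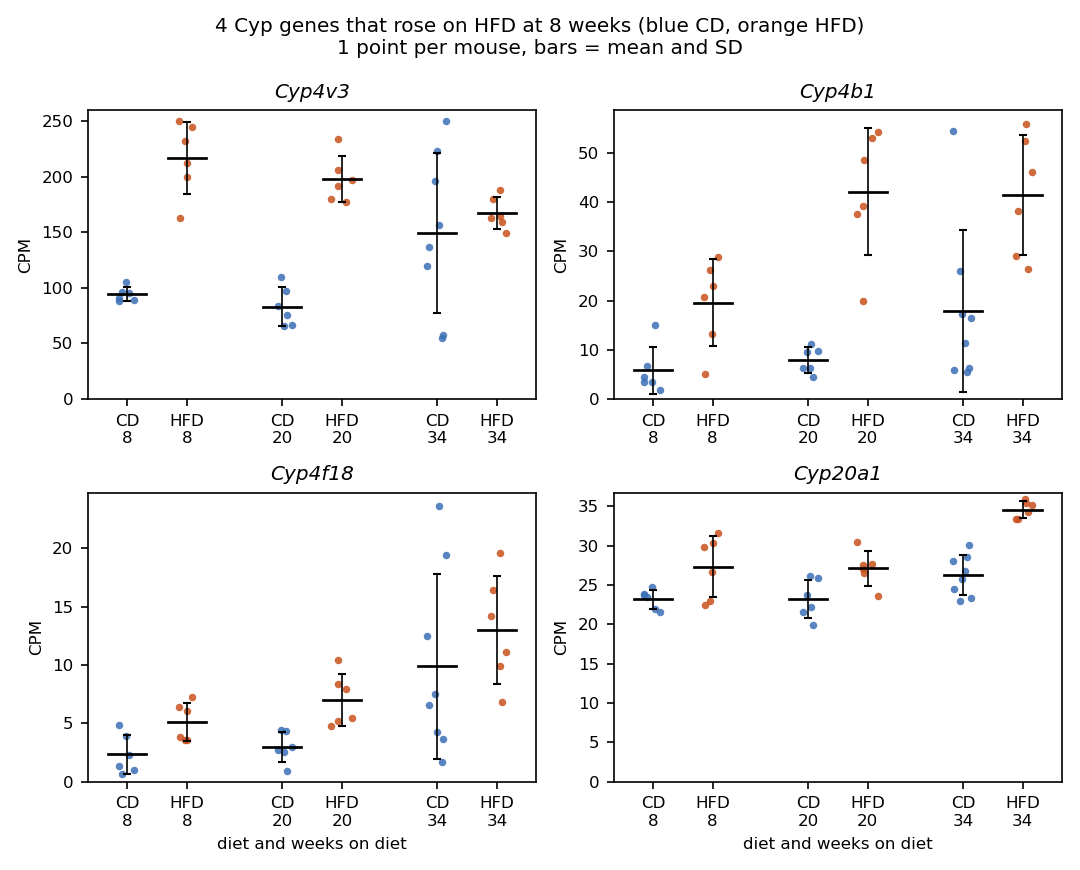
CPM on linear axes that start at 0 of Cyp4v3, Cyp4b1, Cyp4f18 and Cyp20a1 by diet and weeks on diet, with 1 point per mouse (blue CD, orange HFD) and bars for the mean and SD of each group. HFD mice lie above CD mice at 8 weeks, by the mean, for all 4 genes, and the 34-week CD mice of Cyp4v3 spread from 54.6 to 250 CPM.

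A trio of Cyp4f genes on chromosome 17, unlike Cyp4f18, held none that was called as higher with HFD at any time. Cyp4f17 and Cyp4f16 lie 6.39 kb apart (chr17:32506050-32530143 and chr17:32536558-32551798, plus strand, GRCm38) and Cyp4f13 lies 373 kb from Cyp4f16 on the other strand (chr17:32924688-32947402). Cyp4f17 had 23.4, 36.0 and 47.2 CPM in CD mice and 9.56, 13.7 and 24.7 in HFD mice at 8 weeks, 30.4, 42.9 and 56.2 against 7.15, 8.53 and 22.0 at 20 weeks, and 6.07, 10.3 and 20.5 against 4.04, 7.22 and 8.40 at 34 weeks. It was lower at all times, by -1.26 ± 0.26 (adjusted p = 0.000248), -1.97 ± 0.26 (adjusted p = 2.24e-07) and -0.65 ± 0.24 (adjusted p = 0.0282), with no overlap at 20 weeks. Its 34-week call was lost in 3 settings (adjusted p from 0.00506 to 0.462 over 10) and without any of 4 mice (CD mice 7 and 8, HFD mice 3 and 4). Its neighbour Cyp4f16 lay between 8.61 and 27.8 CPM in every mouse, with CD and HFD group means of 13.2 and 14.5, 12.0 and 13.1, and 19.3 and 18.1 at the 3 times and differences of 0.11, 0.13 and -0.06 that did not pass (adjusted p = 0.463, 0.374 and 0.706). Cyp4f13 fell by 0.38 at 8 weeks (adjusted p = 0.00764) and by 0.27 at 20 weeks (adjusted p = 0.0391) on the log2 scale, and differed by -0.02 at 34 weeks. Its group means were 25.4 and 19.5 CPM in CD and HFD mice at 8 weeks, 28.3 and 23.3 at 20 weeks, and 26.1 and 25.8 at 34 weeks, and with the macrophage term the 20-week difference was -0.31 and not called (adjusted p = 0.0988). Near-identical stretches leave some doubt between these genes, since 10.1% of the 75-base words of Cyp4f16 also occur in Cyp4f14, Cyp4f17 or Cyp4f37, but only 0.865% of those of Cyp4f17 are shared. The other 4 Cyp4f genes within 500 kb (Cyp4f14, Cyp4f15, Cyp4f39 and Cyp4f40) and a pseudogene had means of at most 0.677 CPM.

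Cyp2j6 and Cyp2j9, which lie 4.12 kb apart on chromosome 4 and belong to the arachidonic acid epoxygenases, were both lower with HFD at 34 weeks, and Cyp2j6 also at 20 weeks. Cyp2j6 group means were 29.6 and 32.7 CPM in CD and HFD mice at 8 weeks, 32.1 and 24.5 at 20 weeks, and 30.9 and 23.8 at 34 weeks. The log2 difference was 0.14 (adjusted p = 0.30), -0.37 ± 0.11 (adjusted p = 0.00337, no overlap) and -0.36 ± 0.10 (adjusted p = 0.004). With the macrophage term Cyp2j6 was called as higher at 8 weeks (0.30, adjusted p = 0.0182) and was not called at 20 weeks (-0.12, adjusted p = 0.467) or 34 weeks (-0.17, adjusted p = 0.277). Cyp2j9 levels were 9.67, 10.8 and 12.2 CPM in CD mice and 10.2, 14.2 and 17.7 in HFD mice at 8 weeks, and 7.84, 10.3 and 12.4 against 8.9, 9.39 and 10.8 CPM at 20 weeks. At 34 weeks they were 5.82, 12.5 and 15.3 CPM in CD mice and 5.51, 7.06 and 12.3 in HFD mice. CD mouse 5 was below all HFD mice but 1, whereas the other 7 CD mice had at least 11.5 CPM. Its differences were 0.34 (adjusted p = 0.0981), -0.05 (adjusted p = 0.81) and -0.52 ± 0.16 (adjusted p = 0.00919), and the last was -0.30 and not called with the macrophage term. The 8-week difference was called with that term (0.53, adjusted p = 0.0188), and also without HFD mouse 2 at 8 weeks or CD mouse 5 at 34 weeks. The other 5 Cyp2j genes within 500 kb of Cyp2j6 had means of at most 0.0466 CPM.

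The sterol genes did not pass in any diet comparison. Cyp27a1, a mitochondrial enzyme that oxidizes the side chain of cholesterol, had 39.9, 46.1 and 64.3 CPM in CD mice and 38.1, 49.8 and 77.6 in HFD mice at 8 weeks. The values were 34.1, 42.5 and 58.7 against 39.1, 42.4 and 44.8 CPM at 20 weeks, and 38.8, 51.2 and 66.6 against 31.0, 45 and 59.3 CPM at 34 weeks, so the diets overlapped at each time. Its log2 differences were 0.10 (95% interval -0.25 to 0.46), -0.03 (-0.38 to 0.32) and -0.20 (-0.53 to 0.13), with adjusted p = 0.64, 0.896 and 0.318. Cyp51, the lanosterol demethylase of cholesterol synthesis, had 21.6, 30.8 and 43.6 CPM in CD mice and 25.2, 49.4 and 62.3 in HFD mice at 8 weeks, 25.9, 32 and 46.1 against 27.2, 38.8 and 44.6 at 20 weeks, and 31.1, 56.2 and 93.5 against 36.7, 41.4 and 69.2 at 34 weeks. The diets overlapped at all 3 times. The differences were 0.49 (adjusted p = 0.0648), 0.19 (adjusted p = 0.469) and -0.29 (adjusted p = 0.246), and the 8-week difference passed when any 1 of 5 mice was left out (CD mice 1 and 6 and HFD mice 2 and 5 at 8 weeks, CD mouse 5 at 34 weeks). The reads of Cyp51 on 3.76% of its exon bases overlap Akap9 on the opposite strand.

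Cyp20a1, an orphan with no assigned substrate, was called as higher with HFD at all 3 times, by small differences. Its levels were 21.6, 23.6 and 24.7 CPM in CD mice and 22.5, 28.2 and 31.6 in HFD mice at 8 weeks, 19.9, 23.0 and 26.1 against 23.6, 27.3 and 30.5 at 20 weeks, and 23.0, 26.3 and 30.1 against 33.4, 34.8 and 35.9 at 34 weeks. Only the 34-week mice did not overlap. The rise on the log2 scale was 0.22 (SE 0.08, adjusted p = 0.0277), 0.22 (adjusted p = 0.0199) and 0.39 ± 0.07 (adjusted p = 0.00018). The 8- and 20-week rises were lost with TMM scaling, which gave 0.11 and 0.01, as well as with size factors, edgeR, DESeq2 and the macrophage term, and without any of 5 mice at 8 weeks (CD mice 3 and 4, HFD mice 3, 4 and 6) or of 2 at 20 weeks (CD mouse 3, HFD mouse 3), whereas the 34-week rise was called in all of these settings (0.30 with TMM scaling).

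Whether the diet difference itself changed with time was tested with interaction terms, which share the mice of the diet comparisons. From 8 to 20 weeks 2 of the 15 genes were called (5.09% of all genes, and 0 by edgeR), Cyp1b1 (1.86 ± 0.54, adjusted p = 0.0415) and Cyp2j6 (-0.51 ± 0.15, adjusted p = 0.0438). From 8 to 34 weeks 6 were called (28.7%). The difference of HFD from CD mice became higher for Cyp2f2 (4.02 ± 0.63, adjusted p = 4.46e-05) and Cyp1b1 (3.38 ± 0.52, adjusted p = 4.2e-05). It became lower for Cyp2j9 (-0.86), Cyp4v3 (-0.84), Cyp51 (-0.77, not with TMM scaling) and Cyp2j6 (-0.50). Between those times Cyp2f2 and Cyp1b1 fell in CD mice (by 3.24 and 3.09), and neither was called in HFD mice (0.78 with adjusted p = 0.154 and 0.29 with adjusted p = 0.541). From 20 to 34 weeks Cyp2f2 (4.53 ± 0.63, adjusted p = 3.7e-05) and Cyp4f17 (1.32 ± 0.35, adjusted p = 0.0144) were the 2 called (10.6%). Cyp1b1 (1.52, adjusted p = 0.056) was called there with TMM scaling (1.65, adjusted p = 0.0317), size factors (adjusted p = 0.0434) and the macrophage term (adjusted p = 0.0175). For Cyp2e1 the diet difference was not shown to change, with 0.35 from 8 to 34 weeks (95% interval -1.12 to 1.81) and 1.72 from 20 to 34 weeks (0.26 to 3.18, adjusted p = 0.114).

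The comparison of times within a diet takes age, length of feeding and time of harvest together, and these comparisons share the 8-week mice. The paper names different control chows without saying which was fed at each time, and the part of this was not tested. Between 8 and 20 weeks no Cyp gene was called by limma in CD mice (3.61% of all genes), none had an unadjusted p below 0.05, and edgeR and DESeq2 called 0 as well. Between 8 and 34 weeks in CD mice 10 were called (64.7%). Cyp2f2 fell by 3.24 ± 0.43 on the log2 scale (adjusted p = 1.83e-07), Cyp1b1 by 3.09 ± 0.36 (adjusted p = 2.18e-08), Cyp2e1 by 2.36 ± 0.49 (adjusted p = 0.000113), Cyp4f17 by 1.60 ± 0.24 (adjusted p = 1.17e-06) and Cyp2d22 by 0.54. All 34-week CD mice were below all 8-week CD mice for Cyp2f2 and Cyp4f17, and 7 of 8 were for Cyp2e1, Cyp1b1 and Cyp2d22. For comparisons of times the share of all genes without overlap was not computed, so such statements describe the named genes only. Cyp4f18 (1.51 ± 0.36, adjusted p = 0.000522), Cyp4b1 (1.33 ± 0.40, adjusted p = 0.00446), Cyp51 (0.78 ± 0.20, adjusted p = 0.00117), Cyp4f16 (0.48) and Cyp20a1 (0.17) rose, the last not with TMM scaling. With the macrophage term 4 of these 10 were called (Cyp1b1, Cyp2f2, Cyp4f17 and Cyp51), together with Cyp2j6, against 53.4% of all genes.

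In HFD mice 4 genes were called between 8 and 20 weeks (36.9% of all genes). Cyp1b1 rose by 1.35 ± 0.38 on the log2 scale (adjusted p = 0.00685), with all 20-week mice above all 8-week mice, and Cyp4b1 rose by 1.17 ± 0.43 (adjusted p = 0.0314). Cyp2j9 fell by 0.51 and Cyp2j6 by 0.40. With the macrophage term none of these 4 was called, and Cyp4f16 and Cyp4f18 were called as lower (5.63% of all genes called). Between 8 and 34 weeks 9 were called (52.6%), with Cyp4f18 (1.17), Cyp4b1 (1.16), Cyp4f13 (0.39), Cyp20a1 (0.34) and Cyp4f16 (0.31, not with TMM scaling) higher. Cyp2e1 fell by 2.01 ± 0.53 (adjusted p = 0.00182), Cyp4f17 by 0.99, Cyp2j9 by 0.74 and Cyp2j6 by 0.46. With the macrophage term none of the 15 genes was called, against 20.2% of all genes.

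Each of the 15 genes was also set against the mean log2(CPM + 1) of the 14 macrophage markers over the 38 mice, as deviations from the group means with permutation within groups. Of the 15 relations, Cyp4f18 gave Pearson's r = 0.86 (two-sided permutation p = 1e-05, the smallest that 100000 permutations can give, adjusted p = 0.00015) and Spearman's rho = 0.91 (adjusted p = 0.00015), positive in 6 of 6 groups. Without the 2 mice farthest from the median r was 0.86. Cyp4f16 gave r = 0.62 (permutation p = 0.00052, adjusted p = 0.0023), rho = 0.56 (p = 0.00065 by permutation, adjusted p = 0.0049) and r = 0.59 without those 2 mice. Cyp2e1 gave r = -0.55 (permutation p = 0.00031, adjusted p = 0.0023), rho = -0.48 (adjusted p = 0.018) and r = -0.45 without them. Cyp2j6 gave r = -0.57 (permutation p = 0.00062, adjusted p = 0.0023), but its rho of -0.40 did not pass (adjusted p = 0.055) and r was -0.38 without them. Cyp4f17 had r = -0.38 (adjusted p = 0.064) and rho = -0.43 (adjusted p = 0.05), and for the other 10 genes no adjusted p was below 0.05.

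**Figure D5:**
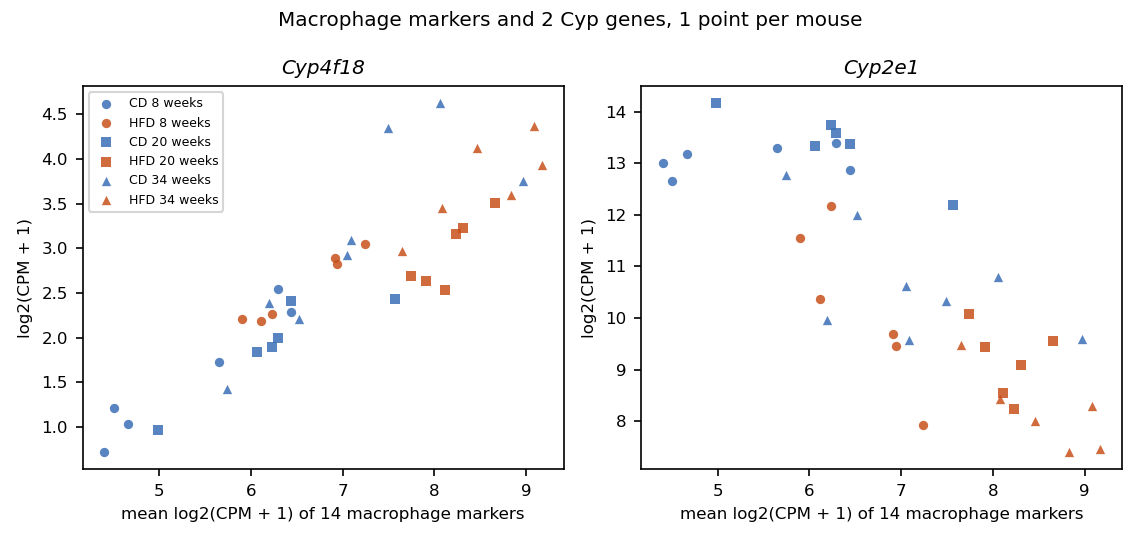
log2(CPM + 1) of Cyp4f18 (left) and Cyp2e1 (right) against the mean log2(CPM + 1) of 14 macrophage markers, with 1 point per mouse, blue for CD and orange for HFD, and circles, squares and triangles for 8, 20 and 34 weeks. Cyp4f18 lies higher and Cyp2e1 lower in mice with more macrophage marker RNA, and within groups r is 0.86 and -0.55.

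Partner genes of the P450 enzymes were measured beside them, and their counts are to be read against the 30.1%, 38.9% and 28.0% of all genes that were higher and the 15.0%, 18.7% and 15.7% that were lower at 8, 20 and 34 weeks, and their medians against 0.11, 0.14 and 0.08. Por, the reductase that feeds electrons to the microsomal enzymes, had means of 939 and 461 CPM in CD and HFD mice at 8 weeks, 850 and 411 at 20 weeks, and 424 and 291 at 34 weeks, and was lower at all times (log2 -1.06 ± 0.17, -1.05 ± 0.17 and -0.48 ± 0.16, adjusted p = 1.27e-05, 3.37e-06 and 0.0136). Of 8 redox partners tested, 3 were higher and 3 lower at 8 weeks, 3 and 4 at 20 weeks, and 1 and 3 at 34 weeks. The cytochrome b5 gene Cyb5b and the reductases Cyb5r1 and Cyb5r3 were the higher ones at 8 and 20 weeks, whereas Fdx1 fell at all 3 times. Of 8 haem synthesis genes 0, 1 and 1 were higher and 3, 4 and 3 lower, and Alas1, the first enzyme of the pathway, fell by 0.61 at 8 weeks (adjusted p = 0.000296) and by 0.35 at 20 weeks (adjusted p = 0.0174). Median log2 differences of the lists were -0.02, -0.16 and -0.30 for redox partners and 0.09, -0.23 and -0.20 for haem synthesis.

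Of 9 further genes of sterol synthesis tested beside Cyp51, 6 were higher and none lower at 8 weeks, 5 and 0 at 20 weeks, and 0 and 3 at 34 weeks, with medians of 0.63, 0.69 and -0.09. Dhcr7, the last reductase of the pathway, rose by 1.62 at 8 weeks (adjusted p = 4.42e-06) and 1.61 at 20 weeks (adjusted p = 9.48e-07), and differed by 0.26 at 34 weeks (adjusted p = 0.341). Between 8 and 34 weeks in CD mice 7 of the 9 rose and none fell, beside 64.7% of all genes called in either direction. Their median was 1.02, against 0.14 over all genes, and Cyp51 rose too. Of 12 receptors and factors tested, 1, 4 and 4 were higher and 4, 4 and 3 lower with HFD, with medians of -0.12, -0.09 and 0.00. Ahr, the receptor of which Cyp1b1 is a known target, had means of 4.19 and 5.8 CPM at 8 weeks (adjusted p = 0.312), 3.57 and 11.9 at 20 weeks (adjusted p = 0.000108) and 2.46 and 11.7 at 34 weeks (adjusted p = 2.92e-05). Its partner Arnt fell by 0.87 at 8 weeks (adjusted p = 3.32e-06) and by 0.82 at 20 weeks (adjusted p = 1.33e-06), and differed by -0.03 at 34 weeks. The 2 P450 enzymes under other names, Tbxas1 (thromboxane synthase) and Ptgis (prostacyclin synthase), were higher in 2, 1 and 1 cases, with Tbxas1 at 6.26 and 22.1, 12.5 and 95.7, and 42.8 and 153 CPM in CD and HFD mice at the 3 times. Of the epoxide hydrolases, which open the epoxides that P450 enzymes form, Ephx1 rose by 2.83 at 8 weeks (adjusted p = 1.32e-06) and 2.73 at 20 weeks (adjusted p = 4.39e-07), and Ephx2 fell by 0.61 at 20 weeks (adjusted p = 0.0315) and 0.58 at 34 weeks (adjusted p = 0.0366).

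The 85 Cyp genes at or below the limit had reads in 47 cases, and 65 of them had a mean under 0.1 CPM. For the 38 without a read, a count of 0 allows up to 3 reads over all mice, or 0.00617 CPM, which covers counting error only. The limit fell between the 5 lowest expressed genes, Cyp4b1 (22.2 CPM), Cyp4f17 (19.8), Cyp4f16 (15.3), Cyp2j9 (11.0) and Cyp4f18 (6.89), and the 5 highest below it, Cyp2u1 (2.55), Cyp2r1 (2.23), Cyp21a2-ps (1.72), Cyp2b10 (1.04) and Cyp2s1 (0.984). By role, 4 of the 52 genes of the drug and pollutant families were expressed and 28 had no read, and 8 of the 27 fatty acid and eicosanoid genes were expressed and 7 had no read. None of the 6 steroid hormone genes, 3 vitamin D genes and 3 retinoic acid genes was expressed, and Cyp19a1 (aromatase), Cyp11b1 and Cyp11b2 had no read. Of the oxysterol and bile acid genes Cyp27a1 alone of 6 was expressed. The largest family, Cyp2, had 49 genes, of which 5 were expressed, 21 lay below the limit and 23 had no read, with no mouse above 5.05 CPM among those below. None of the 9 Cyp3 genes, the main drug-oxidizing group of liver, was above 0.28 CPM in any mouse. Of the expressed genes that lie in arrays, 3 had no expressed neighbour of the family within 500 kb, with 0 of 7 expressed beside Cyp2f2 (at most 0.242 CPM), 0 of 8 beside Cyp2d22 (at most 0.0227 CPM) and 0 of 8 beside Cyp4b1 (at most 0.0594 CPM). The Cyp2j pair and the Cyp4f trio on chromosome 17 had 1 of 6 and 2 of 7 expressed neighbours, respectively, which are each other.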

How the data were processed

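RNA-seq values of 38 mice were analysed, and the 114 labelled samples are 3 technical replicates of each mouse, merged in the deposited table. Per the labels and the methods, libraries were made with a stranded TruSeq kit, and the authors aligned reads to mm10 with STAR (2.5.2b is named in the submitters' processing notes), counted those unambiguous for the union of exons of a gene with featureCounts (Subread 1.5.1) and GENCODE, and dropped genes without an Entrez identifier. The strand setting is not given in the sources used here. The CPM values deposited by the authors have the same sum in each mouse, which leaves no TMM factor visible, and 26 symbols appear as dates, so genes were matched by Entrez identifier. All values (100%) were whole multiples of 1 read within 0.1 reads, and the whole reads recovered were used for edgeR and DESeq2 as alternatives, where edgeR called 4592, 6101 and 4642 genes for diet at 8, 20 and 34 weeks.

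Values were taken as log2(CPM + 1), genes with a mean above 3 CPM were kept (10543), and the 6 groups were fitted together with limma 3.58.1 in R 4.3.3 with a mean-variance trend, 32 residual degrees of freedom, Benjamini-Hochberg adjustment over all genes tested and a threshold of 0.05. The fit was tested on simulated data. Exon lengths, overlaps and shared 75-base words came from GENCODE on GRCm38, which may differ from the authors' release, and promoters from RefSeq. edgeR 4.0.16 and DESeq2 1.42.0 were used. Members, gene lists, markers and tests were chosen with earlier results of these data known. Lowest, median and highest mice are given for the 6 genes of highest mean CPM and the 3 largest called rises and falls at each time. The others of the 15 are given by their means and differences.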

Additional observations from a re-analysis of the deposited data

Results flagged for a closer look

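In 5 of the 90 groups examined (15 genes in 6 groups) 1 mouse stood far from the others on the log2 scale by Dixon's test, and chance alone would give about 1 in 20. CD mouse 5 at 34 weeks had the highest Cyp1b1 level of its group, 52.9 CPM beside 3.16 to 7.70 CPM, and the lowest Cyp2j9 level, 5.82 CPM beside 11.5 to 15.3. CD mouse 4 at 34 weeks had the lowest Cyp4f13 level, 20.0 CPM beside 24.7 to 29.1. HFD mouse 5 at 20 weeks had the lowest Cyp4b1 level, 19.9 CPM beside 37.5 to 54.2, and HFD mouse 4 at 20 weeks the highest Cyp4f17 level, 22.0 CPM beside 7.15 to 10.3.

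By a tested interaction on log2(CPM + 1), the following genes were called for a diet difference that changed with time. Between 8 and 34 weeks the HFD difference rose for Cyp2f2 by 4.02 and for Cyp1b1 by 3.38. It changed over the same times by -0.86 for Cyp2j9, -0.84 for Cyp4v3, -0.77 for Cyp51 (not called with TMM scaling or size factors) and -0.50 for Cyp2j6. Between 8 and 20 weeks it rose for Cyp1b1 by 1.86 (adjusted p = 0.0415) and changed for Cyp2j6 by -0.51 (adjusted p = 0.0438), and edgeR called neither. Between 20 and 34 weeks it rose for Cyp2f2 by 4.53 and for Cyp4f17 by 1.32. In CD mice Cyp2f2 and Cyp1b1 fell between 8 and 34 weeks, by 3.24 and 3.09 on the same scale. In HFD mice neither was called between those times (0.78 with adjusted p = 0.154 and 0.29 with adjusted p = 0.541).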

How the results depend on the processing

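Counts of called Cyp genes stayed within 1.5 times in 92 of 110 repeats of 10 comparisons under 11 other settings. Also requiring a 2-fold change left 6, 6 and 2 genes for diet at 8, 20 and 34 weeks, 6 for CD 34 against 8 weeks, 2 and 3 for HFD 20 and 34 against 8 weeks, and 1 and 2 for the change of the diet difference from 8 to 20 and to 34 weeks. The macrophage term gave 6 and 2 for diet at 20 and 34 weeks, 5 for CD 34 against 8 weeks, and 2 and 0 for HFD 20 and 34 against 8 weeks, and reversed Cyp4f18 at 20 weeks to -0.423 (adjusted p = 0.211). Fitting the compared groups alone left 3 at 34 weeks. For the change from 8 to 20 weeks, no filter and edgeR gave 0, DESeq2 gave 1 and the replicate block (mouse number) gave 1. Leaving out 1 mouse gave 0 to 2 genes there and 2 to 5 for the change from 20 to 34 weeks, the latter with more than 1.5 times the calls without CD mouse 5 or CD mouse 6 at 34 weeks. Without 1 mouse, diet counts ran from 8 to 12, 7 to 11 and 5 to 8. Apart from those with the macrophage term, whose shares are given above, these counts stand without the share of all genes called under the same setting. They therefore describe the Cyp genes only. The causes were not tested.

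The mouse numbers were not taken to pair the mice. Deviations of same-numbered CD and HFD mice correlated from -0.50 to 0.52 and 10 of 18 pairs were under 0.1. Differently numbered mice were not compared, so these values cannot decide whether the numbers pair them. With the replicate block 9, 10 and 5 Cyp genes were called for diet at 8, 20 and 34 weeks, and the share of all genes called with it is not given here. Of 330 values of single genes under other settings, 295 kept their side of the threshold, 29 lost the call, 5 gained it and 1 was reversed. A change of sign between values that were not called was counted as kept, so the 295 did not all keep their direction. Depth limits mainly genes below the limit, where 3 reads in a mouse are 0.194 to 0.323 CPM.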

Other observations

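The Cyp genes at or below 3 CPM were fitted after their values had been seen, with limma over all 21166 genes with a read and with edgeR on the recovered reads over 17482 genes. For diet at 8, 20 and 34 weeks limma called 9, 6 and 8 of 47 (background 24.3%, 35.7% and 25.6%) and edgeR 12, 9 and 8 of 30 (31.0%, 45.1% and 30.9%). Cyp39a1, an oxysterol hydroxylase, was higher with HFD by both at all 3 times, with means of 0.265 and 0.918 CPM in CD and HFD mice at 8 weeks, 0.617 and 2.01 at 20 weeks, and 0.531 and 1.2 at 34 weeks. Cyp2u1, a long-chain fatty acid hydroxylase, and Cyp2r1, a vitamin D hydroxylase, were higher by both at 8 and 20 weeks. Their means were 1.09 and 2.84 CPM (Cyp2u1) and 1.26 and 3.07 CPM (Cyp2r1) in CD and HFD mice at 8 weeks, and the HFD mice did not overlap the CD mice. The share of all genes without overlap was 22.8% at 8 weeks above the limit and was not computed below it.

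Cyp2c70, which makes muricholic acids in liver, had 0 to 1 read per CD mouse and 3 to 19 reads per HFD mouse at 8 weeks, and 0 to 2 against 5 to 17 reads at 20 weeks, and both tests called it. At 34 weeks CD mice had 2 to 21 reads and HFD mice 4 to 23, and neither test called it. Cyp1a1, another known target of the aryl hydrocarbon receptor, had 1 to 36 reads per CD mouse and 0 to 2 per HFD mouse at 8 weeks. There the CD median was 0.2 CPM and the highest CD mouse had 3.33 CPM, and edgeR alone called it (adjusted p = 0.00971). Cyp11a1, which starts steroid synthesis, had reads in only 2 of 6 CD mice at 8 weeks, with at most 19 (1.63 CPM, group median 0). It had 0 reads in every HFD mouse at that time, which edgeR alone called as lower (adjusted p = 0.0104). At 34 weeks it had 0 to 7 reads per CD mouse and 6 to 10 per HFD mouse, called as higher by both tests. The pseudogene Cyp21a2-ps was lower with HFD by both tests at 8 and 34 weeks, with means of 3.37 and 1.09 CPM in CD and HFD mice at 8 weeks and 1.61 and 0.378 CPM at 34 weeks. Values of so few reads carry a large counting error.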
